A study of Mus musculus with 2 samples.

Results

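The genes described here are 10 imprinted genes with roles in growth, taken by symbol from a deposited table of 24061 gene rows, in which all 10 had a row. They lie in 5 imprinted domains: H19 and Igf2 in the H19-Igf2 domain, Cdkn1c, Phlda2 and Kcnq1ot1 in the Kcnq1 domain, Igf2r and Airn in the Igf2r-Airn domain, Grb10 in its own domain, and Peg10 and Sgce in the Peg10-Sgce domain. The cells were mouse embryonic stem cells of strain C57BL/6, grown with leukaemia inhibitory factor on embryonic fibroblast feeders, with poly(A) RNA sequenced from 1 library per group. The Pc4-OE-labelled library (the label stands for overexpression of Pc4, a transcriptional coactivator encoded by Sub1) came from cells at passages 24 to 37, which had received a Venus (yellow fluorescent protein) lentivirus. The control-labelled library came from cells at passages 17 to 23, so passage and group cannot be told apart. Colonies expressing the marker had been picked to make several overexpressing lines, and the labels do not say which of them gave the library, nor whether feeders were removed before RNA extraction.

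Imprinted genes are expressed mainly from the chromosome inherited from the mother or from the father, according to DNA methylation laid down in the germ line. Neighbouring imprinted genes share a control region, and in several domains a long noncoding RNA made from the paternal chromosome keeps nearby protein-coding genes silent there. Many paternally expressed genes promote growth before birth and many maternally expressed ones restrain it. Of the genes here, 5 are known as mainly maternally expressed (H19, Cdkn1c, Phlda2, Igf2r and Grb10) and the other 5 as paternally expressed (Igf2, Kcnq1ot1, Airn, Peg10 and Sgce). The parental origin of the reads was not measured, so each allele named below is background.

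Of the 10 genes, 1 was at least 2-fold higher in the Pc4-OE-labelled library (H19) and 3 were at least 2-fold lower (Peg10, Cdkn1c and Grb10). The other 6 met neither limit. The rule asked for a ratio of at least 2 either way and a 95% counting interval that excluded 1, and it was applied where the libraries held 20 or more counts together, a minimum that all 10 passed. Of all 14213 genes measured, 11.8% met the rule upwards and 4.02% downwards, and of the 11637 with at least 100 counts 9.41% and 3.15% did. The count of 1 in 10 was therefore near the background upwards and the count of 3 in 10 above it downwards, with no test because each group had 1 library and the genes were chosen with earlier results of these data known. All 4 calls rest on counting error alone: with a coefficient of variation of 0.4 between cultures assumed in the intervals, 0 of the 10 met the rule upwards and 0 downwards, against 4.2% and 0.675% of all genes measured. A 1.5-fold rule gave 3 higher genes (H19, Kcnq1ot1 and Sgce), against 18.8% of all genes, and 4 lower, with Phlda2 added, against 13.2%. The median log2 ratio of the 10 genes, Pc4-OE over control, was 0.54, against -0.01 for all genes measured. It was -0.67 for the 5 maternally expressed genes, of which 3 had a ratio below 1, and 0.67 for the 5 paternally expressed genes, of which 1 did. Summed levels (CPM, defined below) went the other way. The maternally expressed genes summed to 1255 CPM in the Pc4-OE-labelled library and 1020 CPM in the control-labelled library. The paternally expressed genes summed to 466.1 CPM Pc4-OE-labelled and 935.9 CPM control-labelled. Igf2r made the largest part of the maternal sums and Peg10 of the paternal sums. In undifferentiated mouse embryonic stem cells Igf2r is known to be expressed from both chromosomes, so its place in the maternal sums follows the listed allele only.

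The Pc4-OE-labelled library held 10194783 counts and the control-labelled library 10571463. Levels are CPM, the counts of a gene relative to the size of its library, with sizes adjusted by the TMM method. Intervals cover counting error only, and no value below has a replicate check. Sub1, the gene named as overexpressed, had 235.0 CPM in the Pc4-OE-labelled library and 530.3 CPM in the control-labelled library, against the direction of the label, so the libraries are named by label and every direction follows the labels. Whether the labels were exchanged was not tested, and an exchange would turn every direction, median and count of higher and lower genes given here. Stem cell markers summed to 5360 CPM in the Pc4-OE-labelled library and 7352 CPM in the control-labelled library, with 9 of 13 below a ratio of 1, none at 0 and 2 past 2-fold downwards (L1td1, 4.13-fold, and Lin28a, 2.02-fold). Of the defining ones, Pou5f1 (571.4 CPM in the Pc4-OE-labelled library, 1092 CPM in the control-labelled one), Sox2 (456.1 CPM Pc4-OE-labelled, 461.0 CPM control-labelled) and Nanog (506.1 CPM Pc4-OE-labelled, 427.5 CPM control-labelled) were present in both. Markers of embryonic fibroblasts summed to 19180 CPM in the Pc4-OE-labelled library and 7489 CPM in the control-labelled library, with 23 of 23 above a ratio of 1, 18 of them past 2-fold and none at 0. Among them Col1a1, a collagen chain gene, had 1536 CPM in the Pc4-OE-labelled library and 732.5 CPM in the control-labelled library. Macrophage markers summed to 630.0 CPM in the Pc4-OE-labelled library and 227.9 CPM in the control-labelled one, with 16 of 16 above a ratio of 1 and none at 0. Of all 14213 genes measured, 7001 had a ratio above 1 and 7212 below 1. Past 2-fold were 11.8% of them upwards and 4.02% downwards. The markers moved with the libraries, and their part in the results below was not tested. In such bulk RNA fewer cells of a type and less RNA per cell cannot be told apart.

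**Figure D1:**
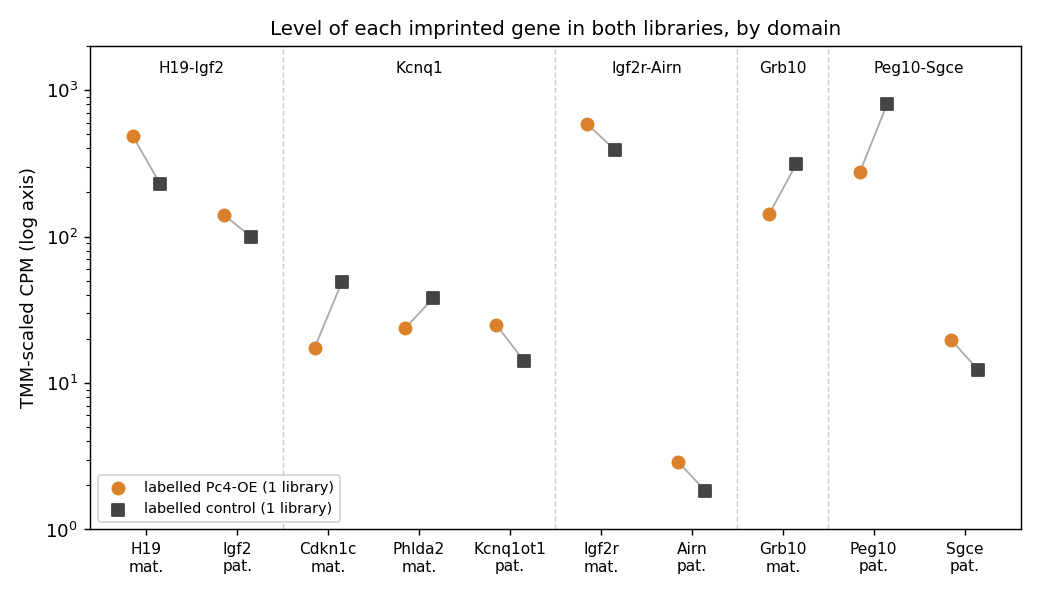
TMM-scaled CPM (log axis) of each gene in the Pc4-OE-labelled library (circles) and the control-labelled library (squares), 1 library each, ordered by domain; mat. and pat. give the allele known to be expressed. H19 and Igf2 are both higher in the Pc4-OE-labelled library, while Peg10 (277.4 CPM Pc4-OE-labelled, 807.8 CPM control-labelled) and its neighbour Sgce (19.7 CPM Pc4-OE-labelled, 12.3 CPM control-labelled) differ in opposite directions.

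In the H19-Igf2 domain both genes were higher in the Pc4-OE-labelled library, H19 by more than Igf2. H19, a maternally expressed long noncoding RNA known to restrain growth, lies at chr7:142575530-142578146 (GRCm38, minus strand). It had 5032 counts, or 486.2 CPM, in the Pc4-OE-labelled library and 2386 counts, or 229.1 CPM, in the control-labelled library. That is 2.12-fold higher (interval 2.02 to 2.23), just past the 2-fold limit. Igf2, the paternally expressed fetal growth factor that signals through the IGF1 and insulin receptors, lies at chr7:142650768-142666816. It had 1461 counts (141.2 CPM) in the Pc4-OE-labelled library and 1038 counts (99.7 CPM) in the control-labelled library, 1.42-fold higher (1.31 to 1.53). H19 and Igf2 are known to share enhancers, with CTCF bound to the unmethylated maternal control region between them. The H19 to Igf2 count ratio, which needs no scaling between libraries, was 3.44 in the Pc4-OE-labelled library and 2.30 in the control-labelled library. The ratio of these ratios was 1.5 (1.36 to 1.65), a difference larger than counting error.

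Both genes of this domain carry a microRNA in their transcribed region, shown here because the H19 transcript is the precursor of miR-675. The mature sequences are those of RefSeq on GRCm38.p6, read 5′ to 3′, with the seed (bases 2 to 8) in capitals, and lie on the minus strand at chr7:142577112-142577133, chr7:142577078-142577099, chr7:142654968-142654989 and chr7:142654932-142654952 in the order given.
mmu-miR-675-5p: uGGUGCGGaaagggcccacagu
mmu-miR-675-3p: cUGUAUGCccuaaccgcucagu
mmu-miR-483-5p: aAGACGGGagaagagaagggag
mmu-miR-483-3p: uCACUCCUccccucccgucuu
The 4 seeds differ from each other. The rows Mir675 and Mir483 of the table had 0 counts in both libraries. Poly(A) libraries do not sample mature microRNAs, so the H19 and Igf2 counts are levels of the host transcripts only.

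The receptor gene of the group was higher in the Pc4-OE-labelled library by less than 2-fold, and its antisense RNA could not be told apart from no difference. Igf2r, the maternally expressed mannose 6-phosphate receptor that takes IGF2 from the cell surface to lysosomes, had 6058 counts (585.3 CPM) in the Pc4-OE-labelled library and 4078 counts (391.6 CPM) in the control-labelled library. It was 1.49-fold higher (1.44 to 1.56). Airn, the paternal noncoding RNA known to silence Igf2r on its own chromosome, had 30 counts (2.90 CPM) in the Pc4-OE-labelled library and 19 counts (1.83 CPM) in the control-labelled library. Its log2 ratio of 0.67 had an interval of -0.21 to 1.58, which includes 0. In undifferentiated mouse embryonic stem cells Airn is known to be low and Igf2r to be expressed from both chromosomes. The Igf2r to Airn count ratio was 201.9 in the Pc4-OE-labelled library and 214.6 in the control-labelled library, and the ratio of these ratios, 0.94, had an interval of 0.50 to 1.73. A difference within that interval was not detectable at this depth.

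Airn starts inside Igf2r on the opposite strand, and 28.4 kb of the 2 gene bodies overlap, although no exon bases of the GENCODE M21 models do. The RefSeq promoter windows of the pair (250 bases before to 50 after the start, GRCm38.p6) are shown because they differ strongly in composition. The Airn window is chr17:12741061-12741360 on the plus strand and the Igf2r window chr17:12769657-12769956 on the minus strand.
Airn: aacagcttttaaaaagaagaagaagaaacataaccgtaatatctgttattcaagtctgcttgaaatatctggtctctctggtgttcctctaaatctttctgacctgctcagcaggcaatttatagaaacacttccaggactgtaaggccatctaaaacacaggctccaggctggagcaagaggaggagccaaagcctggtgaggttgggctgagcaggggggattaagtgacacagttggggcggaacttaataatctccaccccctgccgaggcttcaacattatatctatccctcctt
Igf2r: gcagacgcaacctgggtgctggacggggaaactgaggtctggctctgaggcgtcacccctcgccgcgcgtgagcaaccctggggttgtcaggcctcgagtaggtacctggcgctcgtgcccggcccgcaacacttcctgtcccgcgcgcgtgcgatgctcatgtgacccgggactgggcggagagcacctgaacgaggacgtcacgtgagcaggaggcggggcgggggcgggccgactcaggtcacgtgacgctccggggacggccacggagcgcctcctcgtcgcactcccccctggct
The Airn window held 3 CG dinucleotides and 45.7% G and C, and the Igf2r window 34 and 70.7%, against medians of 7 and 52.7% over 32851 promoter windows of the same length. Neither held CCAAT (read as CCAAT or ATTGG, both strands), the core motif of the factor NF-Y, which 37.4% of all windows held at least once.

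Grb10 was lower in the Pc4-OE-labelled library. It encodes an adaptor that binds the insulin and IGF1 receptors and dampens their signalling, and it is maternally expressed outside the brain. Grb10 (chr11:11930499-12037428, minus strand) had 1472 counts, or 142.2 CPM, in the Pc4-OE-labelled library and 3261 counts, or 313.2 CPM, in the control-labelled library. The gene was 2.20-fold lower (2.07 to 2.34). Its neighbours Ddc, the DOPA decarboxylase gene, and Cobl, an actin nucleator gene, were also lower. Of the 5 measured genes within 1 Mb of Grb10, 2 had a ratio above 1. Ddc had 104 counts in the Pc4-OE-labelled library and 362 in the control-labelled library, 3.46-fold lower, and Cobl had 1245 in the Pc4-OE-labelled library and 2093 in the control-labelled library, 1.67-fold lower, which does not meet the 2-fold rule.

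In the Kcnq1 domain the maternally expressed growth inhibitors were lower in the Pc4-OE-labelled library, and the paternal noncoding RNA was higher. Cdkn1c, which encodes the cyclin-dependent kinase inhibitor p57, had 180 counts (17.4 CPM) in the Pc4-OE-labelled library and 508 counts (48.8 CPM) in the control-labelled library. It was 2.81-fold lower (2.36 to 3.34). Phlda2, a pleckstrin homology domain protein known to restrain placental growth, had 246 counts (23.8 CPM) in the Pc4-OE-labelled library and 393 counts (37.7 CPM) in the control-labelled library. Its ratio was 1.59-fold lower (1.35 to 1.87), which does not meet the 2-fold rule. Kcnq1ot1, the noncoding RNA known to silence the domain on the paternal chromosome, had 258 counts (24.9 CPM) in the Pc4-OE-labelled library and 148 counts (14.2 CPM) in the control-labelled library. It was 1.75-fold higher (1.43 to 2.16), also without meeting the rule.

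Because Cdkn1c and Phlda2 were lower and Kcnq1ot1 higher, ratios to Kcnq1ot1 within a library had to differ by more than each gene alone. They restate the values above without scaling between libraries. The Cdkn1c to Kcnq1ot1 count ratio was 0.70 in the Pc4-OE-labelled library and 3.43 in the control-labelled library, 4.91-fold lower (3.74 to 6.46). The Phlda2 to Kcnq1ot1 ratio was 0.95 in the Pc4-OE-labelled library and 2.65 in the control-labelled library, 2.78-fold lower (2.14 to 3.63). The Cdkn1c to Phlda2 ratio, between genes of the same expressed allele, was 0.73 in the Pc4-OE-labelled library and 1.29 in the control-labelled library, 1.77-fold lower (1.39 to 2.25). These 3 ratios share genes and are not independent of each other. Kcnq1ot1 lies wholly inside Kcnq1, a potassium channel gene on the opposite strand, and shares 121 exon bases with it (0.13% of its own). The Kcnq1 row had 7 counts in the Pc4-OE-labelled library and 3 in the control-labelled library, a ratio of 2.35 with an interval of 0.54 to 14.1. Whether the counting used strand is not given in the sources used here, so reads of Kcnq1 introns and of Kcnq1ot1 cannot be told apart.

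The Kcnq1ot1 promoter lies in the control region of the domain, methylated on the maternal chromosome, and NF-Y is known to bind CCAAT boxes there in the mouse. It is printed beside that of Phlda2, since the 2 genes differed in opposite directions. Capitals mark CCAAT or its complement ATTGG in RefSeq windows of 300 bases on GRCm38.p6, Kcnq1ot1 at chr7:143296498-143296797 and Phlda2 at chr7:143502475-143502774, both on the minus strand.
Kcnq1ot1: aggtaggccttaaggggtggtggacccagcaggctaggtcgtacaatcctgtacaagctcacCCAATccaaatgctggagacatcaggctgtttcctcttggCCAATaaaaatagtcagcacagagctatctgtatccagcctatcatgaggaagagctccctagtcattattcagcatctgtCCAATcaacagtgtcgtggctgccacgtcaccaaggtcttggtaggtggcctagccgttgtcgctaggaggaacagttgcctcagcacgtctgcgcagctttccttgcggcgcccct
Phlda2: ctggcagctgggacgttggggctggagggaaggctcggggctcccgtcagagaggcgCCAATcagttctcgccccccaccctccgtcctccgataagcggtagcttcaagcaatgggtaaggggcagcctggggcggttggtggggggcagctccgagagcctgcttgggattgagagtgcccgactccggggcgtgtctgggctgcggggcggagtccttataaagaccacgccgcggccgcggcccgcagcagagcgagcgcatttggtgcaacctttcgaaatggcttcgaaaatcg
The Kcnq1ot1 window held 3 matches, a number that 3.37% of all promoter windows reached or passed, and the Phlda2 window held 1. The hexamer TGCCGC (complement GCGGCA), which the imprint-protecting factor ZFP57 is known to bind when methylated, was in neither, nor in the Airn and Igf2r windows, but in 1 of the 4 Igf2 windows and 1 of the 2 Grb10 windows, against 11.6% of all windows. The Kcnq1ot1 window held 9 CG dinucleotides and the Phlda2 window 26. Windows were present for 6 of the 10 genes and not used here for H19, Cdkn1c, Peg10 and Sgce.

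**Figure D2:**
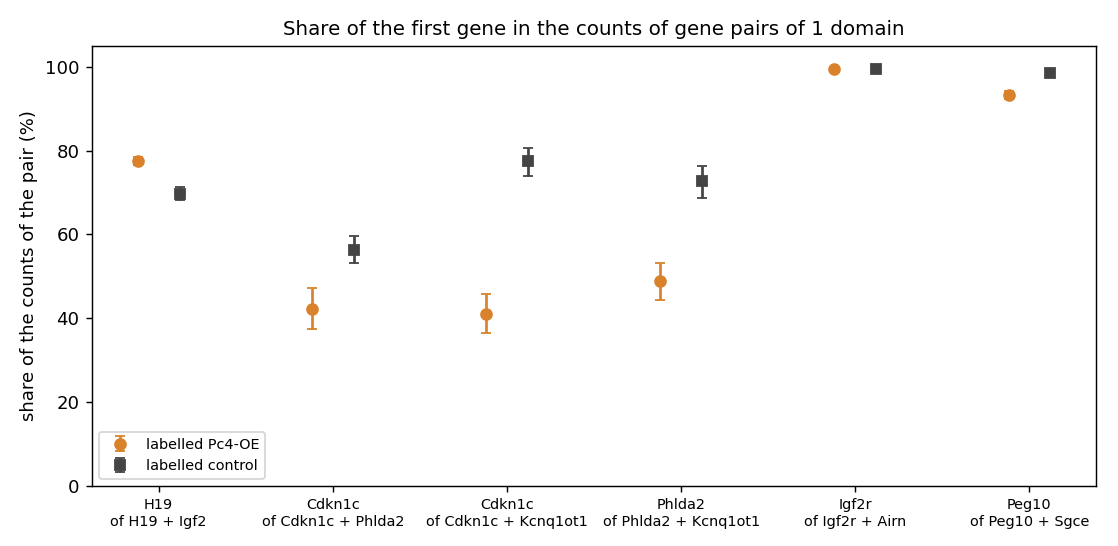
Share of the first gene in the summed counts of a pair from 1 domain (%), in the Pc4-OE-labelled library (circles) and the control-labelled library (squares), with exact 95% binomial intervals that cover counting error only. The Cdkn1c share of Cdkn1c and Kcnq1ot1 counts was 41.1% in the Pc4-OE-labelled library and 77.4% in the control-labelled library. The Peg10 share of Peg10 and Sgce counts was 93.4% in the Pc4-OE-labelled library and 98.5% in the control-labelled library. The intervals of Igf2r and Airn overlap (99.5% in both libraries), and those of the other pairs do not. The Kcnq1-domain pairs share genes, and how often other gene pairs separate on counting error was not computed.

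In the Peg10-Sgce domain, Peg10 was lower and its close neighbour Sgce higher in the Pc4-OE-labelled library. Peg10, a paternally expressed gene derived from a retrotransposon and needed for placental development, lies at chr6:4747306-4760517 on the plus strand. It had 2871 counts, or 277.4 CPM, in the Pc4-OE-labelled library and 8412 counts, or 807.8 CPM, in the control-labelled library. Peg10 was 2.91-fold lower (2.79 to 3.04), the lowest ratio of the 10 genes. Sgce, the paternally expressed gene of the membrane protein epsilon-sarcoglycan, lies on the minus strand (chr6:4674350-4747204) and starts 98 bases away in the GENCODE M21 models. It had 204 counts (19.7 CPM) in the Pc4-OE-labelled library and 128 counts (12.3 CPM) in the control-labelled library, 1.60-fold higher (1.28 to 2.02), without meeting the 2-fold rule. The genes are known to share a promoter region methylated on the maternal chromosome. The Peg10 to Sgce count ratio was 14.1 in the Pc4-OE-labelled library and 65.7 in the control-labelled library, 4.67-fold lower (3.71 to 5.90).

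**Figure D3:**
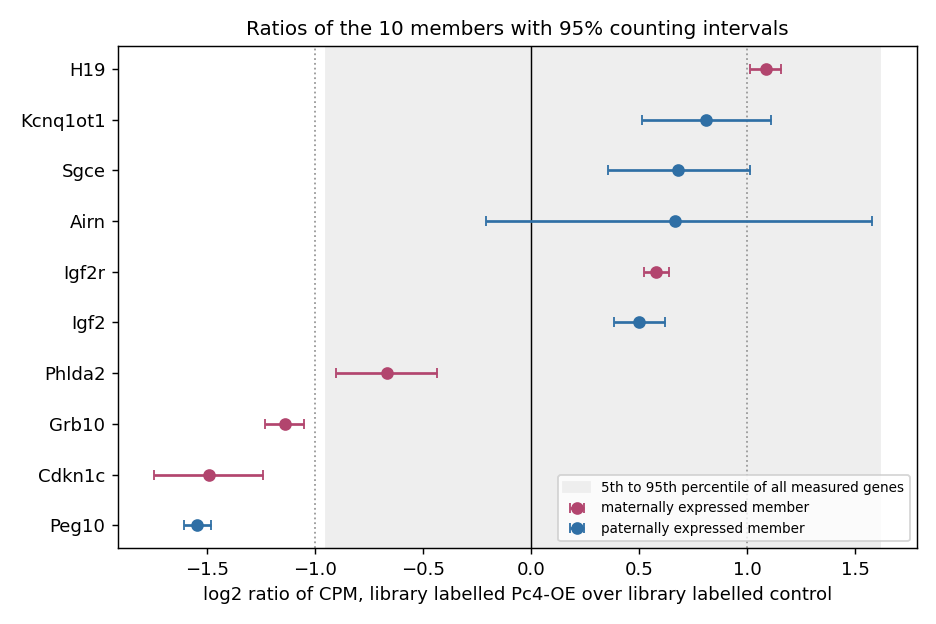
log2 ratio of CPM of each gene, Pc4-OE-labelled over control-labelled library, with 95% counting intervals; the grey band spans the 5th to the 95th percentile of all measured genes (-0.95 to 1.62) and dotted lines mark 2-fold. Grb10, Cdkn1c and Peg10 lie below the band, and no gene lies above it.

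Per length of exon, the order of the genes differed between the libraries. In the Pc4-OE-labelled library, H19 had the highest level at 197.6 CPM per kb of exon, followed by Igf2r at 62.9, Peg10 at 41.6 and Igf2 at 24.7. In the control-labelled library, Peg10 came first at 121.2 CPM per kb, followed by H19 at 93.2, Igf2r at 42.1 and Grb10 at 34.5. Sgce, Airn and Kcnq1ot1 had the lowest levels in both libraries, at 1.86, 0.81 and 0.27 CPM per kb in the Pc4-OE-labelled library and 1.16, 0.51 and 0.15 in the control-labelled library. Igf2 and Phlda2 (21.2 CPM per kb) had overlapping counting intervals in the Pc4-OE-labelled library, as did Grb10 and Phlda2 (33.7 CPM per kb) in the control-labelled library. The other neighbours in each order did not overlap. Lengths are those of merged GENCODE M21 exons, which may not be the annotation the authors counted on. The unspliced Kcnq1ot1 model is 93.1 kb long, while Airn was divided by only 3.6 kb of exons, so the order of these genes depends on the models.

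Genes around the domains varied in both directions, as the members did. Of all 14213 genes measured, 11.8% passed 2-fold upwards and 4.02% downwards, and 7212 had a ratio below 1. Neighbours are measured genes whose lowest coordinate lay within 1 Mb of a member's lowest coordinate. For genes on the minus strand that coordinate is the end of the gene, not its transcription start. In the Kcnq1 domain, 7 of 20 passed 2-fold upwards and 0 downwards. The median log2 ratio of the 20 was 0.24, while Cdkn1c stood at -1.49. Around H19 and Igf2, 4 of 18 were higher and 1 lower (median 0.18, and 1.22 over the 3 genes within 250 kb). Because 12 genes lay in both chromosome 7 windows, most of these higher genes among them, the counts of the H19-Igf2 and Kcnq1 windows are not independent. Around Igf2r and Airn (0.58 and 0.67), 8 of 10 had a ratio below 1, with -0.37 as the median. Around Grb10 (-1.14), 3 of 5 had a ratio below 1, with -0.55 as the median. Around Peg10 (-1.54) and Sgce (0.68), 4 of 10 were higher, among them the listed fibroblast marker Col1a2, and 1 lower. The median was 0.71, which turned to -0.17 over the 3 genes within 250 kb. The medians over the whole of chromosomes 6, 7, 11 and 17 were 0.01, 0.00, 0.00 and -0.05.

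**Figure D4:**
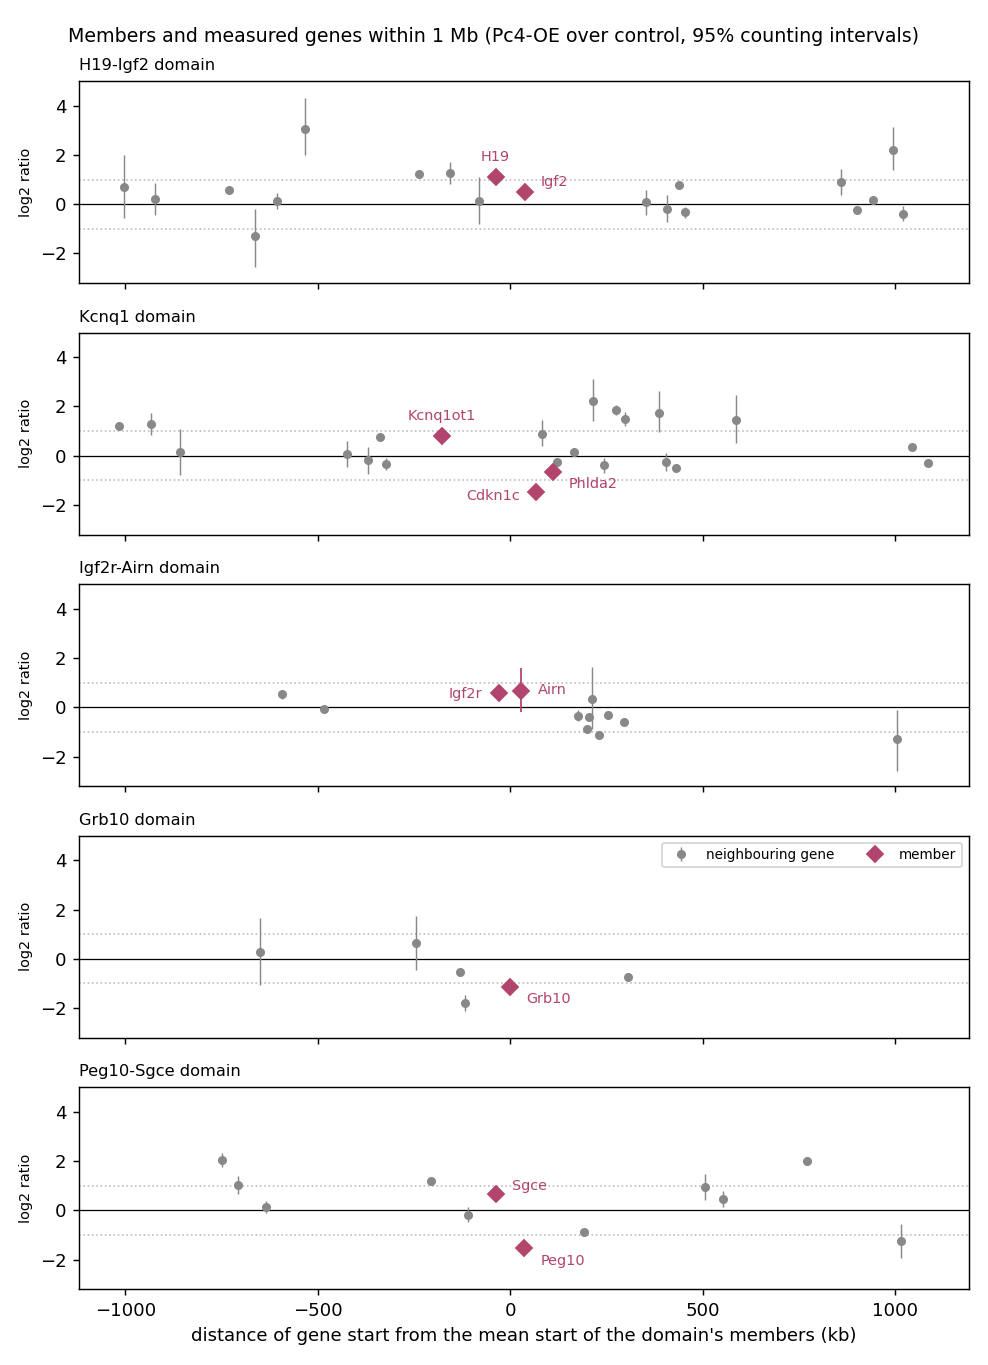
log2 ratio (Pc4-OE-labelled over control-labelled library) of the members (diamonds) and of all measured genes within 1 Mb (circles), with 95% counting intervals and dotted lines at 2-fold. Distance in kb runs from the mean lowest coordinate of the members to the lowest coordinate of each gene, whichever its strand. Cdkn1c (-1.49) and Peg10 (-1.54) lie below every neighbour in their windows, and Igf2r (0.58) lies above 10 of 10.

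Among other genes of the same domains, 14 of 24 were measured, with a median log2 ratio of 0.28. Of the 14, 3 passed 2-fold upwards and 1 (Ddc) downwards, against 11.8% and 4.02% of all genes measured. The 3 were Tfpi2, a protease inhibitor gene (4.11-fold, 547 counts in the Pc4-OE-labelled library and 134 in the control-labelled library), Pdk4, a mitochondrial kinase gene of glucose oxidation (4.02-fold, 1301 counts Pc4-OE-labelled and 326 control-labelled), and Osbpl5, a lipid transfer protein gene (2.78-fold, 393 counts Pc4-OE-labelled and 142 control-labelled). In the Kcnq1 domain, the tetraspanin gene Cd81 had a log2 ratio of 0.78, the transporter gene Slc22a18 of 0.90, the trophoblast factor gene Ascl2 of 0.07, the histone chaperone gene Nap1l4 of -0.25 and Tssc4 of -0.33. Near Peg10, the neuronal scaffold gene Ppp1r9a stood at -0.89, the sialic acid acetyltransferase gene Casd1 at -0.17, and the paraoxonase genes Pon3 and Pon2 at 0.94 and 0.48.

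Imprinted genes of further domains were mostly within 2-fold, as were most genes measured, of which 11.8% were higher and 4.02% lower. Of 16 measured paternally expressed ones, 1 was higher and 0 lower, and the median was -0.17. The higher one was Peg12, on 18 counts in the Pc4-OE-labelled library and 3 in the control-labelled library (6.04-fold, 1.76 to 32.0), and its log2 ratio of 2.59 became 1.51 with 0.5 CPM added. Peg3, a zinc finger gene of maternal behaviour and growth, had 2326 counts Pc4-OE-labelled and 3425 control-labelled (log2 ratio -0.55), the amino acid transporter gene Slc38a4 3728 counts Pc4-OE-labelled and 3542 control-labelled (0.08), and Impact 1182 counts Pc4-OE-labelled and 1367 control-labelled (-0.20). Of 7 measured ones listed as maternally expressed, 1 was higher and 0 lower, and the median was 0.47. The higher one was Gnas, the stimulatory G protein alpha subunit gene (2.19-fold, 4893 counts in the Pc4-OE-labelled library and 2247 in the control-labelled library). H13, a signal peptide peptidase gene, stood at 0.47, Ube3a, a ubiquitin ligase gene, at -0.31 and Commd1 at -0.21. Snrpn and Snurf, overlapping genes of 1 locus, were listed at 0 in both libraries. The median was higher for paternally than for maternally expressed genes among the 10 and lower among these further genes. The grouping is by listed allele, and the parental origin of the reads was not measured.

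The 14 measured genes of the insulin-like growth factor pathway outside the 10 had a median of 0.61. Against 11.8% of all genes measured upwards and 4.02% downwards, 4 of the 14 passed 2-fold upwards and 0 downwards. They were Igf1, another ligand of the IGF1 receptor (3.02-fold, 75 counts in the Pc4-OE-labelled library and 25 in the control-labelled library), Irs2, a receptor substrate (2.55-fold, 185 counts Pc4-OE-labelled and 73 control-labelled), and the binding protein genes Igfbp7 (3.00-fold, 1466 counts Pc4-OE-labelled and 492 control-labelled) and Igfbp6 (2.37-fold, 59 counts Pc4-OE-labelled and 25 control-labelled). Igfbp2, another binding protein gene, had 647.2 CPM Pc4-OE-labelled and 348.9 CPM control-labelled (log2 ratio 0.89) and the receptor gene Igf1r 97.6 CPM Pc4-OE-labelled and 70.4 CPM control-labelled (0.47). Igf2bp1, an RNA-binding protein gene known for binding Igf2 mRNA, had 387.4 CPM Pc4-OE-labelled and 554.8 CPM control-labelled (-0.52), and its relative Igf2bp2 125.5 CPM Pc4-OE-labelled and 90.4 CPM control-labelled (0.47). The median of the fibroblast markers was 1.30 between the same libraries, and their part in these values was not tested.

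Of 20 genes that maintain imprints, silence chromatin or remove DNA methylation (Tet1, Tet2 and Tet3), 19 had a ratio below 1, 0 passed 2-fold downwards and 1 upwards, and the median was -0.43. Of all 14213 genes measured, 7212 had a ratio below 1, and 4.02% passed downwards and 11.8% upwards. Zfp57, which keeps methylation at imprinted control regions, had 448.4 CPM in the Pc4-OE-labelled library and 620.5 CPM in the control-labelled library (log2 ratio -0.47), and its cofactor Trim28 975.4 CPM Pc4-OE-labelled and 1226 CPM control-labelled (-0.33). Dnmt1, the maintenance methyltransferase gene, stood at -0.38 and its partner Uhrf1 at -0.70, and Tet1, a demethylation enzyme gene, at -0.78. Dppa3, a protector of imprints in the zygote, was 2.01-fold higher on 104 counts Pc4-OE-labelled and 52 control-labelled, and with 0.5 CPM added its log2 ratio of 0.94 missed the 2-fold limit. Stem cell markers, with a median of -0.45 over 13 genes, lay in the direction of this list, and their part in it was not tested.

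**Figure D5:**
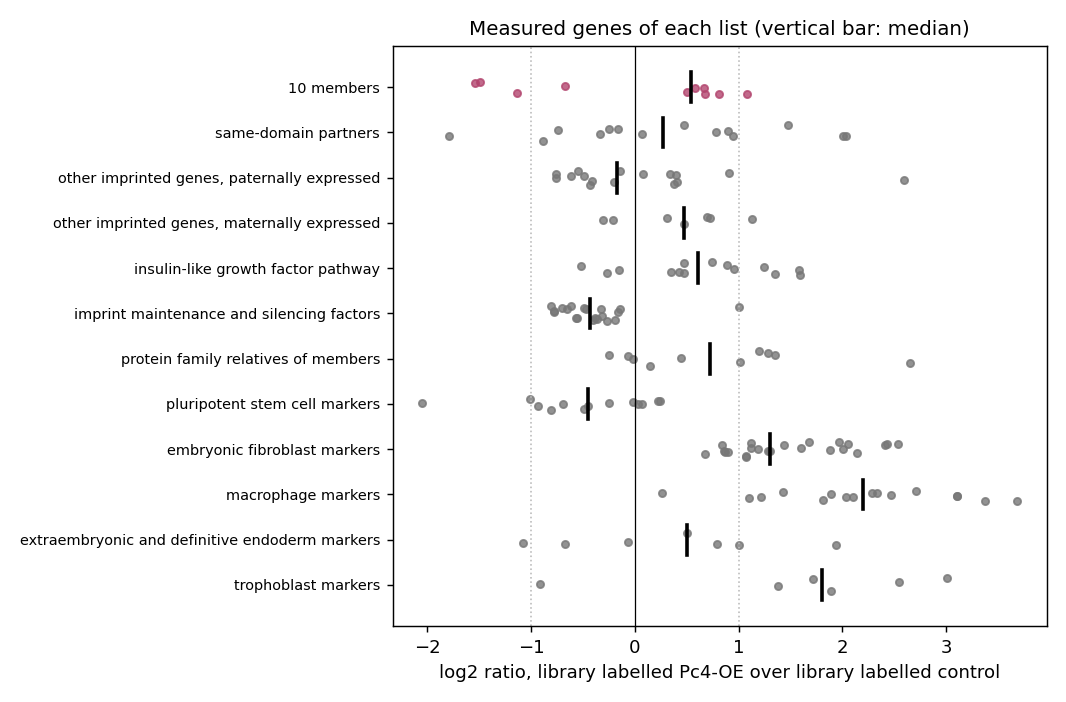
log2 ratio (Pc4-OE-labelled over control-labelled library) of every measured gene of each list (points) with the median of the list (vertical bar); dotted lines mark 2-fold. The 10 members spread from -1.54 to 1.09 around a median of 0.54, while fibroblast markers (median 1.30) and macrophage markers (median 2.20) lie wholly above 0.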

How the data were processed

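The authors deposited whole-number read counts per gene for 2 libraries, 1 labelled Pc4-OE and 1 labelled control. Per the submitters' processing notes, STAR 2.4.1c and featureCounts were used with the mm10 build. Which gene annotation and strand setting were used, and how multiply mapped reads were treated, is not given in the sources used here. Counts were scaled by TMM (edgeR 4.0.16), and ratios were taken without a pseudocount. Intervals are exact 95% Clopper-Pearson intervals of the 2 counts (scipy 1.17.1). Ratios between gene pairs have exact conditional intervals, and levels per kb exact Poisson intervals. All cover counting error only, and 1 library per group allows no p-value. The Phlda2 to Kcnq1ot1 ratio was added after the data were seen.

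The genes and lists were chosen with earlier results of these data known. Named genes are the 10 members, measured genes of their domains, Kcnq1, and from each other gene list up to 5 that met the 2-fold rule and up to 3 others with the most counts. Exceptions named after their values were seen are Igf1r, Dnmt1, Uhrf1, Snrpn, Snurf, Tpbpa, Cdx2, Elf5, Hand1, Mir675 and Mir483. Marker lists are given by their sums, with few genes named, which departs from that rule. Positions came from RefSeq on GRCm38 through Entrez IDs (99.7% of rows matched). The steps were tested on simulated counts. Alternatives were library totals, DESeq2 1.42.0 size factors, upper-quartile scaling, a pseudocount of 0.5 CPM, widened intervals, other count minimums, a 1.5-fold rule and a 250 kb window.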

Additional observations from a re-analysis of the deposited data

How the results depend on the processing

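No paired analysis was possible because each group had 1 library and the labels carry no replicate numbers. Under library totals, DESeq2 size factors, upper-quartile scaling, a pseudocount of 0.5 CPM and a minimum of 1 count in each library, H19 stayed the 1 higher gene and Peg10, Cdkn1c and Grb10 the 3 lower ones. All 40 log2 ratios recomputed under the 3 other scalings and the pseudocount kept their direction and stayed within the counting interval, and the remaining settings leave a ratio as it is. With a coefficient of variation of 0.4 between cultures assumed in the intervals, 0 of the 10 genes were higher and 0 lower, and over all genes 597 were higher and 96 lower. Besides Sub1 and the cell type markers, 16 further genes were named past 2-fold. Of these 16, 5 still passed under the assumed coefficient of variation (Ddc, Tfpi2, Pdk4, Grb14 and Peg12). Dppa3 was the 1 of the 16 that missed the limit with the pseudocount (log2 ratio 0.94), which also moved Peg12 by over 1.5 times (2.59 to 1.51). With at least 100 counts, which leaves out Airn, all-gene counts were 1095 higher and 366 lower. A 1.5-fold rule gave 3 higher genes (H19, Kcnq1ot1 and Sgce) and 4 lower, with Phlda2 added, against 18.8% and 13.2% of all genes. Within 250 kb the neighbours' median log2 ratio was 1.22 for the H19-Igf2 domain (3 genes), 0.15 for the Kcnq1 domain (11 genes) and -0.17 for the Peg10-Sgce domain (3 genes), where fewer genes enter. Depth limits Airn most, with 49 counts in all.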

Other observations

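Relatives of the 10 genes in the same protein families were compared for 10 measured genes of 13 listed, of which 5 passed 2-fold upwards and 0 downwards, and the median log2 ratio was 0.73. Of all genes measured, 11.8% passed upwards and 4.02% downwards. Cdkn1a, which encodes the p21 relative of the Cdkn1c product, had 408.1 CPM in the Pc4-OE-labelled library and 201.8 CPM in the control-labelled library (2.02-fold higher), while Cdkn1c was 2.81-fold lower. Cdkn1b, the p27 gene, had 28.5 CPM Pc4-OE-labelled and 28.8 CPM control-labelled (log2 ratio -0.02). Grb14, which encodes an adaptor of the same family as Grb10, was 6.28-fold higher (306 counts in the Pc4-OE-labelled library and 49 in the control-labelled library), while Grb10 was 2.20-fold lower. Grb7, the remaining adaptor of that family, had 36.2 CPM Pc4-OE-labelled and 42.9 CPM control-labelled (log2 ratio -0.24). Phlda1 was 2.44-fold higher and Phlda3, a p53 target, 2.29-fold, while Phlda2 had a log2 ratio of -0.67. Sgcd, the delta-sarcoglycan gene, was 2.55-fold higher (104 counts Pc4-OE-labelled and 41 control-labelled), in the direction of Sgce. M6pr, the smaller mannose 6-phosphate receptor gene, had 186.7 CPM Pc4-OE-labelled and 195.5 CPM control-labelled (log2 ratio -0.07), while Igf2r stood at 0.58.

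Markers of endoderm and trophoblast were compared too, with sums far below those of the fibroblast markers (19180 CPM Pc4-OE-labelled and 7489 CPM control-labelled). Endoderm markers summed to 123.6 CPM in the Pc4-OE-labelled library and 53.9 CPM in the control-labelled library, with 4 of 7 measured markers above a ratio of 1. Of these 7, 2 passed 2-fold upwards and 1 (Hnf4a, 33 counts Pc4-OE-labelled and 70 control-labelled) downwards, against 11.8% and 4.02% of all genes. The largest part of the sum came from Dab2 (91.8 CPM Pc4-OE-labelled and 23.9 CPM control-labelled). Nearly all of the difference between the 2 endoderm sums was that of Dab2, so the sums do not describe the other markers. Trophoblast markers summed to 159.0 CPM Pc4-OE-labelled and 70.1 CPM control-labelled, and 5 of 6 measured markers passed 2-fold upwards (median log2 ratio 1.81), against 11.8% of all genes. The largest part of that sum, and most of its difference between the libraries, came from Tfap2c (1346 counts Pc4-OE-labelled and 519 control-labelled). Tpbpa was at 0 in both libraries. Eomes, the measured trophoblast marker that did not pass, was lower (85 counts Pc4-OE-labelled and 161 control-labelled, log2 ratio -0.91). Cdx2 (0 counts Pc4-OE-labelled and 3 control-labelled), Elf5 and Hand1 were under the count minimum. Whether such cells were present, and their part in the results, was not tested.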
